A study of Mus musculus with 3 samples.

Results

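Macrophages of mouse back skin were examined for 10 genes of the Bcl2 family at 3 stages of telogen, the resting phase of the hair cycle. The genes were the guardians Bcl2, Bcl2l1, and Mcl1, the effectors Bax and Bak1, and the BH3-only genes Bad, Bid, Bcl2l11, Bbc3, and Pmaip1. They were chosen by name, and every array probe that maps to one of them through its RefSeq transcript was kept. This gave 13 probes for 10 of the 19752 genes that could be named on the array. CD1 mice without any genetic change or treatment were used at postnatal day 42 (early telogen, Te), 55 (mid telogen, Tm), and 69 (late telogen, Tl), and the study's text gives Te a slightly older age than the labels do. Cells positive for CD11b and F4/80 and negative for Gr1 were sorted by flow cytometry, and RNA of 3 littermates was pooled. Each stage was 1 array in 1 colour after amplification of the whole transcriptome. No difference between stages can therefore be set against a spread between mice, no test was possible, and every value below describes these 3 arrays.

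The Bcl2 family decides whether the outer membrane of the mitochondrion stays intact. Bax and Bak1 open pores in that membrane, which release cytochrome c and lead to activation of caspases. The guardians bind and restrain Bax, Bak1, and their activators, and the BH3-only proteins occupy the guardians or activate the effectors directly. Macrophages live as long as signals such as those of the receptor Csf1r maintain this balance, and much of the control acts on the proteins and not on their mRNA, which is what an array measures.

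The assignment of the later arrays was examined first, because it decides the direction of every difference between Tm and Tl. The scanner files carry the sample they were deposited for, and a separate table of log2 values has a column for each sample. Across 36380 probes, the difference between Te and the table's Tm column matched the scanner file of Tl (r = 1.00, residual SD of 0.0044 on the log2 scale) and not that of Tm (r = 0.73, residual SD of 1.29). The Tl column likewise matched the scanner file of Tm, with a residual SD of 0.0057. The names Tm and Tl below follow the scanner files. With the table's assignment, each value given for Tm belongs to Tl and the reverse, and every sign from Tm to Tl turns.

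Levels are given as log2 of a probe's background-corrected signal relative to the 75th percentile of its array, so 0 is the brightness of that percentile and 1 unit is 2-fold. Each of the 13 probes was printed as 1 spot, and all 13 were well above background on all 3 arrays. A probe that the scanner software did not call well above background is called dim. The only error that the arrays provide is technical. Probes printed as 10 or more spots had a median SD of 0.14 (Te), 0.12 (Tm), and 0.12 (Tl) on the log2 scale, and the scanner software put the error of the member spots between 0.14 and 0.15. A difference was taken as beyond the spot error when it exceeded 2 SD of a difference of single spots, which was 0.38 from Te to Tm, 0.37 from Te to Tl, and 0.35 from Tm to Tl. The comparisons from Te to Tm and from Te to Tl share the Te array, so a low or high Te spot moves both.

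**Figure D1:**
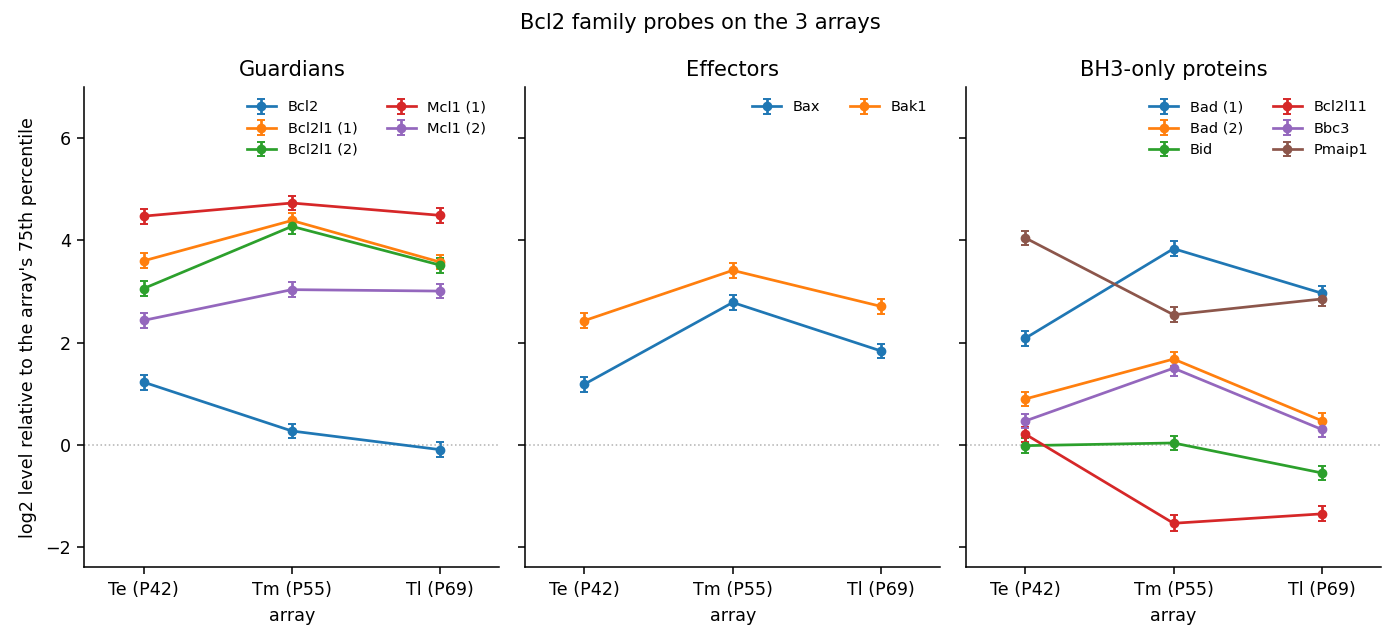
Levels of the 13 Bcl2 family probes on the Te, Tm, and Tl arrays, as log2 signal relative to the 75th percentile of the array. Points are single spots and bars are the error given by the scanner software; Bcl2, Bcl2l11, and Pmaip1 had their highest level at Te, whereas Bax, Bak1, Bbc3, and both probes of Bad and Bcl2l1 had theirs at Tm.

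The promoters of 4 members are shown because these genes stand at the ends of the results: Bcl2 and Bcl2l11 were lower on both later arrays, and Bax and Bad held the largest increases at Tm. Each sequence is the 250 bases before an annotated start, 5′ to 3′ on the strand of the gene, from RefSeq (GRCm38.p6). The windows are chr1:106714291-106714540 on the minus strand for Bcl2, chr2:128125788-128126037 on the plus strand for the first of 2 starts of Bcl2l11, chr7:45466899-45467148 on the minus strand for Bax, and chr19:6941611-6941860 on the plus strand for the first of 2 starts of Bad. Capitals mark matches to 4 short motifs, each read on both strands. These were the GC box (letters GGGCGG), the CCAAT box (spelled as its name), the forkhead motif (letters GTAAACA), and the E box (letters CACGTG).
Bcl2: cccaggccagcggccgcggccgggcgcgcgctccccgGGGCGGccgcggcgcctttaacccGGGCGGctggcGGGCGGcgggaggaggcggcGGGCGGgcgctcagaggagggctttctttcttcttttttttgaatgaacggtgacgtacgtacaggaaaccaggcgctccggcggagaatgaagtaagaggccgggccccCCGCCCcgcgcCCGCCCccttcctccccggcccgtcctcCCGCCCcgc
Bcl2l11: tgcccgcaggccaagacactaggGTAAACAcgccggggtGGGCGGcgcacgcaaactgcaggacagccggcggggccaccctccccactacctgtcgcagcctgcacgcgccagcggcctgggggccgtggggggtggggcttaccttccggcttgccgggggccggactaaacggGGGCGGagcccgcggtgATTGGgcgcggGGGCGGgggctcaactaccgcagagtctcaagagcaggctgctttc
Bax: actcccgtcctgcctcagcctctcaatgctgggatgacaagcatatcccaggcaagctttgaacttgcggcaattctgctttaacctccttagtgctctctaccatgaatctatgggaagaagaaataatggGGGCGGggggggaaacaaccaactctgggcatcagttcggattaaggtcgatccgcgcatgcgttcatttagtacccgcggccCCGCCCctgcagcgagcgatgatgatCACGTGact
Bad: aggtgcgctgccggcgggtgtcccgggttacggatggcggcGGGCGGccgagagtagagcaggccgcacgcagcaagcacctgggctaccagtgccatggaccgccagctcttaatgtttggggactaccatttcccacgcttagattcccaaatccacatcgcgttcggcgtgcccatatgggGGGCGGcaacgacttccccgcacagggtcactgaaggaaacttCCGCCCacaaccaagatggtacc
The Bcl2 window held 7 GC boxes and none of the other motifs. The first Bcl2l11 window held 3 GC boxes, 1 CCAAT box, and 1 forkhead motif, the last beginning at position -227, counted back from the start site. Bax had 2 GC boxes and an E box at position -9, and the first Bad window had 3 GC boxes. Over the same window of all 32851 annotated starts, a GC box was found in 32.7%, a CCAAT box in 33.8%, an E box in 6.02%, and the forkhead motif in 3.17%. Of the 15 windows of the 9 members searched, 10 held a GC box, 4 a CCAAT box, 2 an E box, and 2 the forkhead motif. The other window with the forkhead motif was the second of 3 starts of Bbc3. A match describes the letters only, and the promoter of Pmaip1 was not used.

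Over the 13 probes, the median change from Te to Tm was 0.78, with a range from -1.74 to 1.75. At least 2-fold higher at Tm were 4 probes, against 20.2% of the 40962 probes with a value, and 2 were at least 2-fold lower, against 25.7%. From Te to Tl the median was -0.025, no probe was at least 2-fold higher (14.5% of 42019 probes), and 3 were at least 2-fold lower (31.6%). From Tm to Tl the median was -0.71, none was at least 2-fold higher (8.33% of 36660 probes), and 2 were at least 2-fold lower (12.6%). No member reached the 10-fold that the study's methods use in any comparison, a size that 1.05%, 1.2%, and 0.177% of all probes reached from Te to Tm, Te to Tl, and Tm to Tl. Many probes counted in these shares were dim or had no gene name, unlike the members. Among the 16962 named probes well above background on all 3 arrays, 30.4% were at least 2-fold higher and 13.4% lower from Te to Tm, 23.4% and 13.3% from Te to Tl, and 6.63% and 9.06% from Tm to Tl, with medians of 0.38, 0.28, and -0.16. From Te to Tm the counts of the members were near these shares. From Te to Tl, 2-fold increases were common on the array and absent among the members. This absence depended on the scaling: 3 member probes were 2-fold higher when scaled to the array median and 7 without scaling. These settings also raised the median change of the 30806 probes well above background on all 3 arrays, by 0.52 and 1.16. The share of all probes that were 2-fold higher with them was not counted. In RNA of a sorted population, fewer cells of a type and less RNA per cell cannot be told apart.

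The brightness of a probe went along with its change, and this touches most members, which were bright. Among the 30806 probes well above background on all arrays, the median change from Te to Tm ran from -0.62 among faint probes to 0.87 among bright ones when the probes were divided by mean level into 20 bins of equal size. Each member was therefore also given relative to the median change of the 1540 or 1541 probes of its bin, a comparison added after these values were seen. On that scale the median of the members was 0.11 from Te to Tm, -0.22 from Te to Tl, and -0.31 from Tm to Tl. At least 2-fold away from their bin were 2 probes above (Bax and the first Bad probe) and 3 below (Bcl2, Bcl2l11, and Pmaip1) from Te to Tm. From Te to Tl only the same 3 below remained. The share of all probes this far from their bin was not counted. From Te to Tm, 14.5% of the bin of Bax and 11.1% of that of the first Bad probe had a higher change. In the bins of Bcl2, Bcl2l11, and Pmaip1, 19.9%, 8.96%, and 3.25% had a lower change.

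**Figure D2:**
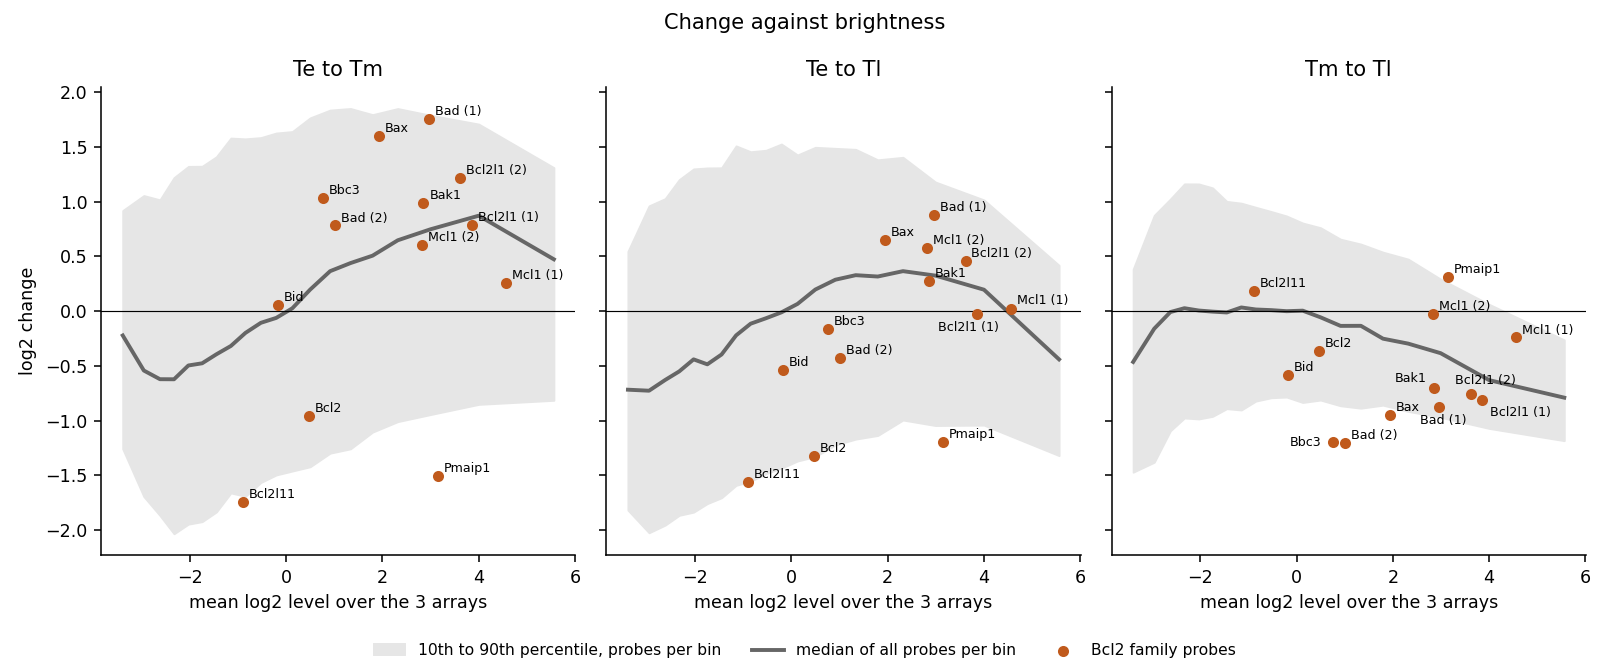
Log2 change of the 13 Bcl2 family probes against their mean log2 level, from Te to Tm, Te to Tl, and Tm to Tl. The line is the median and the grey band the 10th to 90th percentile of all probes in 20 bins of brightness. Pmaip1 lies below the band in both comparisons with Te, with Bcl2l11 at its lower edge. Bbc3, the second Bad probe, and Bax lie below it from Tm to Tl.

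Among the guardians, Bcl2 was lower on both later arrays, Mcl1 differed little, and Bcl2l1 was higher at Tm. Bcl2, the founding member of the family, protects cells that have lost growth factor. Its log2 level was 1.23 at Te and went to 0.27 at Tm and -0.10 at Tl. The signal was thus 1.94-fold lower at Tm and 2.50-fold lower at Tl than at Te, changes of -0.96 and -1.32 that were beyond the spot error. Relative to probes of like brightness, the changes were -1.15 and -1.52. Of those probes, 19.9% had a lower change than Bcl2 at Tm and 10.1% at Tl. The change from Tm to Tl was -0.37, beyond the error of repeated spots but within 2 SD of the error given by the software. The probe was designed on 1 of the 2 Bcl2 mRNAs that RefSeq lists.

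Bcl2l1 encodes Bcl-xL, the guardian that holds Bax and Bak1 as well as several BH3-only proteins. Its first probe, the brighter one, had log2 levels of 3.60 (Te), 4.39 (Tm), and 3.58 (Tl), the middle array being the highest. The second probe, on the same transcript, had 3.06, 4.28, and 3.52 in that order. Both probes were highest at Tm, with changes from Te of 0.79 and 1.22, and both were lower again at Tl, with changes of -0.81 and -0.76 from Tm. They did not share a difference between Te and Tl, which was -0.025 for the first probe and 0.46 for the second. Relative to probes of like brightness, the increases at Tm were -0.081 and 0.35, so that bright probes in general were higher on that array by a like amount.

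Mcl1 is the guardian with the shortest-lived protein and is needed for the survival of several blood cell types. Its first probe had 4.48, 4.73, and 4.49 as log2 levels on the Te, Tm, and Tl arrays, and no difference between arrays was beyond the spot error. The second probe had 2.44, 3.04, and 3.01 and was higher at Tm by 0.60 and at Tl by 0.57. Relative to probes of like brightness, the first probe differed by -0.61 at Tm and -0.18 at Tl, and the second differed by -0.14 and 0.25.

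Both effectors were highest at Tm. Bax, which moves from the cytosol to mitochondria when activated, had a log2 level of 1.19 at Te, against 2.79 at Tm and 1.84 at Tl. It was 3.03-fold higher at Tm and 1.57-fold higher at Tl than at Te, and 1.93-fold lower at Tl than at Tm. All 3 differences were beyond the spot error. From Te to Tm, the change was 1.60, or 1.09 above probes of like brightness, of which 14.5% had a higher change. From Te to Tl it was 0.65, or 0.33 above them.

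Bak1, which resides in the mitochondrial membrane, had log2 levels of 2.43, 3.41, and 2.71 at Te, Tm, and Tl. Its change of 0.98 to Tm was beyond the spot error, and its change of 0.28 to Tl was not. Relative to probes of like brightness these were 0.24 and -0.045. Bax and Bak1 thus shared the highest level at Tm, and Bax had the larger distance from probes of its own brightness.

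The BH3-only genes were divided. Bcl2l11 and Pmaip1 were lower on both later arrays, Bad and Bbc3 were higher at Tm, and Bid was lower at Tl.

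Bcl2l11 encodes Bim, a BH3-only protein that binds all guardians and is known to be induced by forkhead factors when survival signals are withdrawn. Its log2 level was 0.21 at Te, against -1.54 at Tm and -1.35 at Tl. The signal at Te was 3.35-fold that at Tm and 2.95-fold that at Tl, and the later arrays differed by 0.18, within the spot error. The changes from Te, -1.74 and -1.56, were -1.55 and -1.45 relative to probes of like brightness, of which 8.96% and 9.87% had a lower change. The probe was designed on 1 of 5 mRNAs that RefSeq lists for Bcl2l11, so that a change between isoforms could not be told apart from a change of the gene. The same limit holds for the probes of Bcl2 and Bad (2 mRNAs listed for each gene), Bcl2l1 (5), and Bbc3 (6).

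Pmaip1 encodes Noxa, which binds Mcl1 above all and is induced by p53 and by cellular stress. Its log2 level was 4.05 at Te, against 2.55 at Tm and 2.85 at Tl. It was 2.84-fold lower at Tm and 2.29-fold lower at Tl, and the 2 later arrays differed by 0.31, within the spot error. Because probes of its brightness were mostly higher on the later arrays, its distance from them was greater than the change itself: -2.25 at Tm and -1.52 at Tl. Of those probes, 3.25% and 7.53% had a lower change. Of all members, Pmaip1 lay furthest below probes of like brightness from Te to Tm.

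Bad, which occupies Bcl2 and Bcl-xL unless it is phosphorylated and held by 14-3-3 proteins, had the largest increase of a single probe. The first probe went from a log2 level of 2.09 at Te to 3.84 at Tm and 2.97 at Tl, which was 3.37-fold and 1.84-fold above Te. The second probe, on the same transcript, had 0.90, 1.68, and 0.47. The probes shared the higher level at Tm (changes of 1.75 and 0.78) but not the sign from Te to Tl (0.88 and -0.43, each beyond the spot error). This difference between the probes, 1.31, was larger than the median of 0.69 over 3258 genes with 2 measured probes and below their 90th percentile of 1.87. The direction of Bad from Te to Tl is thus uncertain.

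Bbc3 encodes Puma, which binds all guardians and is a target of p53. Its log2 level was 0.47 at Te, against 1.50 at Tm and 0.30 at Tl. It was 2.05-fold higher at Tm than at Te and 2.30-fold lower at Tl than at Tm, whereas Te and Tl differed by -0.17, within the spot error. From Te to Tm its change was 1.03, or 0.67 above probes of like brightness, of which 29.0% had a higher change. That change was under 2-fold with quantile normalization (0.81), with normexp background correction (0.79), and with the 75th percentile of probes well above background on all 3 arrays (0.66). From Tm to Tl it was -1.06 relative to probes of like brightness, and 2.47% of those probes had a lower change. The second Bad probe had a value of -1.07 in the same comparison.

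Bid, which links caspase-8 and death receptors to mitochondria, had log2 levels of -0.017, 0.035, and -0.55 at Te, Tm, and Tl. Te and Tm differed by 0.052, within the spot error, and Tl was lower than both, with changes of -0.53 from Te and -0.59 from Tm.

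**Figure D3:**
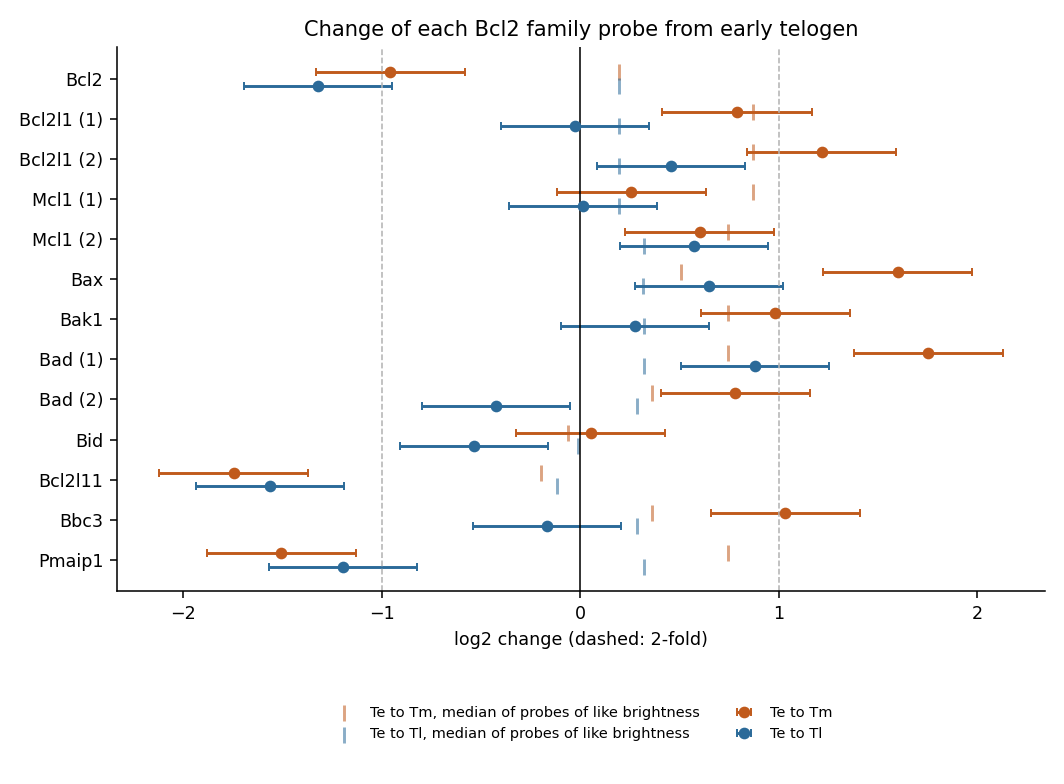
Log2 change of each of the 13 Bcl2 family probes from Te to Tm (orange) and from Te to Tl (blue), which share the Te array. Bars are 2 SD of a difference of single spots and vertical ticks are the median change of probes of like brightness; Bcl2, Bcl2l11, and Pmaip1 lie below 0 and below their ticks in both comparisons.

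The 7 probes of Bax, Bak1, Bbc3, Bad, and Bcl2l1 were each higher at Tm than on both other arrays beyond the spot error. From Te to Tm, 8 probes were higher and 3 lower beyond the spot error, from Te to Tl 4 were higher and 5 lower, and from Tm to Tl 9 were lower and none higher. The share of all probes beyond these limits was not counted, so these counts describe the members only. Changes of that size were common on the array. In the brightness bin of Bcl2, the 10th and 90th percentiles from Te to Tm were -1.42 and 1.76. Probes of like brightness had a median change of -0.38 (median over the member probes) from Tm to Tl, so that bright probes in general were also lower at Tl than at Tm. Bcl2, Bcl2l11, and Pmaip1 kept a negative change from Te on both later arrays with each of the 10 other settings that used the scanner files as assigned. Among these settings, the filters on dim probes could not change a value, because every member probe was well above background on all 3 arrays. Keeping outlier spots left the values nearly the same. The values ranged from -0.40 to -1.33 for Bcl2, -1.19 to -2.12 for Bcl2l11, and -0.95 to -2.25 for Pmaip1 at Tm. At Tl they reached as near to 0 as -0.16, -0.40, and -0.032 when the arrays were not scaled at all, a setting that raises every probe at Tl. Bax and the first Bad probe likewise stayed above 0 with each of these settings, by at least 1.09 and 1.01 at Tm and 0.33 and 0.56 at Tl. From Te to Tm, the sign of the first Mcl1 probe changed with 2 of the other scalings (-0.33 with quantile normalization and -0.12 with the 75th percentile of probes well above background on all 3 arrays), and that of Bid with the latter (-0.32). The second Mcl1 probe and the first Bcl2l1 probe stayed above 0 with each scaling and were below 0 only relative to probes of like brightness.

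Other members of the family were read from lists that were drawn up with earlier results of these data known, with the brightest probe of each gene. Genes at least 2-fold higher made up 29.1% of all genes from Te to Tm, 22.2% from Te to Tl, and 7.85% from Tm to Tl, and genes at least 2-fold lower 16.9%, 20.7%, and 11.3%. Of 5 further guardians, 3 were found on the array and 2 were measured. Bcl2l2, which encodes Bcl-w, had log2 levels of -2.45, -0.90, and -0.42 and was higher by 1.55 at Tm and 2.04 at Tl. Its other probe was higher by 0.26 and 0.66. Bcl2a1d, a copy of the A1 guardian of myeloid cells, had 2.72, 4.41, and 3.54 and was higher by 1.70 and 0.82. Mouse A1 genes are nearly identical copies, so its signal may be shared among them. Bcl2l10 was dim on all 3 arrays.

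Of the 11 further effectors and BH3 genes, 9 had a value from Te to Tm and 10 from Te to Tl. At least 2-fold higher were 4 of them in each comparison, with Bcl2l15 by a lower bound from Te to Tl, and none was at least 2-fold lower. Bmf, a BH3-only gene whose protein is tethered to the cytoskeleton, went from a log2 level of -0.16 at Te to 2.89 at Tm and 2.33 at Tl. Its changes of 3.05 and 2.49 were larger than those of any of the 10 members. Bnip3, which acts at mitochondria in low oxygen, was higher by 1.77 and 1.80, and its second probe by 1.30 and 1.84. Its relative Bnip3l had 0.097 and 0.14 with the brightest probe, whereas the other 3 probes were higher by between 0.99 and 1.72 at Tm and between 1.29 and 2.14 at Tl. Bok, a relative of Bax and Bak1, was higher by 1.15 and 1.06, and Bik by 1.64 and 0.76. Bcl2l13 had 0.11 and 0.95, Bcl2l12 -0.084 and -0.24, Moap1 -0.56 and -0.77, and Bcl2l14 -0.71 and -0.48, with 1.57 from Te to Tl on its second probe. Hrk was dim on all 3 arrays, and Bcl2l15 had only bounds, of opposite sign for 2 of its probes from Te to Tl.

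**Figure D4:**
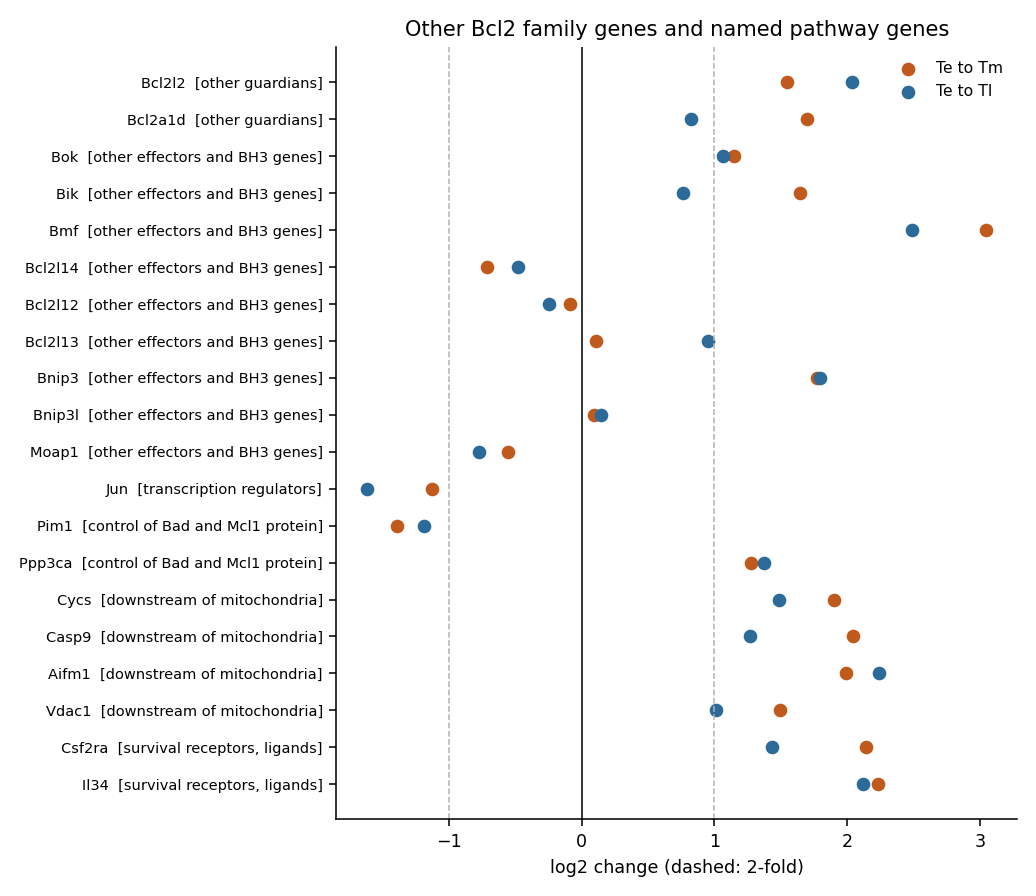
Log2 change from Te to Tm (orange) and from Te to Tl (blue) of other Bcl2 family genes measured on all 3 arrays and of the pathway genes named here that were at least 2-fold away from Te in the same direction on both later arrays, 1 probe per gene. Dashed lines mark 2-fold; Bmf had the largest change from Te to Tm of the genes shown, 3.05, and Jun and Pim1 are the genes past the lower line in both comparisons.

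Genes around the family were described in the same way. Of 15 transcription factors and regulators known to act on Bcl2 family genes, 1 was at least 2-fold higher and 1 lower from Te to Tm, and 1 and 2 from Te to Tl (Mdm2 higher by 1.27, Jun and Trp73 lower). The medians were 0.26 and -0.079, against 0.22 and 0.15 over all genes. Jun, a stress-activated factor, was lower on both arrays, with log2 levels of 5.40, 4.27, and 3.78 at Te, Tm, and Tl. Foxo1 and Foxo3, forkhead factors, differed from Te by 0.037 and 0.55 at Tm and by -0.016 and 0.86 at Tl, without reaching 2-fold. Trp53, which encodes p53, was higher by 1.45 at Tm and 0.72 at Tl. Relative to probes of like brightness these changes were 0.70 and 0.40. With quantile normalization or relative to probes of like brightness, 0 genes of the list were at least 2-fold higher at Tm.

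Of 20 genes that act on the Bad or Mcl1 proteins, 7 were at least 2-fold higher and 2 lower from Te to Tm, and 3 and 1 from Te to Tl. The medians were 0.49 and 0.32. Relative to probes of like brightness, none of the list was 2-fold higher at Tm. Beside the genes below, Fbxw7 was higher by 1.19 at Tl and Mapk8 lower at Tm (-1.15). Pim1, a kinase that phosphorylates Bad, was lower (changes of -1.39 and -1.19), with log2 levels of 4.30, 2.92, and 3.11. Ppp3ca, a catalytic subunit of calcineurin, which removes phosphate from Bad, was higher by 1.27 and 1.37.

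Of 16 genes that act downstream of mitochondria, 6 of 15 with a value were at least 2-fold higher and 2 lower from Te to Tm, and 5 of 16 were higher and 1 lower from Te to Tl. The medians were 0.63 and 0.60. Cycs, the cytochrome c gene, was higher by 1.90 and 1.49. Casp9, the caspase of the apoptosome, was higher by 2.04 and 1.27. Birc2 had a bound of -1.22 at Tm, where it was dim, and Endog was lower at Tl (-1.65). Aifm1, a flavoprotein of mitochondria, was higher by 1.99 and 2.24, and Vdac1, a channel of the outer membrane, by 1.49 and 1.01.

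Of 10 receptors and ligands of myeloid survival, 2 were at least 2-fold higher from Te to Tm and none lower, and 2 were higher and 1 lower from Te to Tl. The medians were -0.041 and -0.12. Csf2ra, a receptor subunit for GM-CSF, was higher by 2.14 and 1.43, and Il34, a ligand of Csf1r that keratinocytes are known to make, by 2.23 and 2.12. Il3ra was lower at Tl (-1.39). Csf1r itself was higher by 0.70 at Tm and 0.16 at Tl. From Tm to Tl, Mdm2 was higher by 1.01, whereas Trp73 (-1.38), Endog (-1.91), and Rps6ka1, a kinase of Bad (-1.14), were lower. Rps6ka1 was still 0.45 above Te at Tl, and its change from Tm to Tl was -0.50 relative to probes of like brightness.

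The cells of the 3 arrays were compared by marker genes, because RNA of other cell types in a sort can carry any of these genes. All 15 macrophage markers found on the array were well above background on all 3 arrays, among them Adgre1, which encodes F4/80 (log2 levels of 4.83, 5.51, and 5.15), and Itgam, which encodes CD11b (8.95, 8.73, and 7.85). Their median change from Te was -0.13 at Tm and -0.35 at Tl. The summed level of the macrophage markers, in units of the 75th percentile, was 1067, 1030, and 666, with Itgam the brightest of them. Relative to probes of like brightness, Adgre1, Csf1r, Tyrobp, and Spi1 were above at Tm, by at most 0.35. The other macrophage markers were below, down to -1.55 for C1qb, and at Tl the values had both signs. Markers of keratinocytes were higher on both later arrays, with 13 of 15 at least 2-fold higher at Tm and 12 at Tl, and median changes of 3.29 and 3.09. Krt5 had log2 levels of 1.58, 5.55, and 4.91. Their summed level, in units of the 75th percentile, was 278, 400.0, and 269, a sum dominated by a probe of Trp63 that did not follow the keratins (log2 levels of 8.03, 8.04, and 7.35). Of 6 Langerhans and dendritic cell markers, Cd207, Epcam, and Itgax were higher, Cd207 by 2.99 and 2.13, whereas Flt3 (-0.73 and -0.93), Cd209a (-0.58 and -1.51), and Xcr1 (-0.031 and -0.91) had values below 0. The summed level was 47.3, 164, and 99.3.

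Markers of fibroblasts had summed levels of 91.7, 43.2, and 46.9, with 3 of 7 that had a value at least 2-fold lower at Tm. At Tl, 3 of 8 were at least 2-fold lower, but 4 had a change above 0, among them Dpt (1.86). Markers of endothelial cells had summed levels of 22.1, 10.5, and 19.3, with 4 of 6 at least 2-fold lower at Tm. T cell markers summed to 3.27, 7.32, and 4.38, with Cd3e higher by 4.20 and 3.08. Of the 8, 6 had a change above 0 at Tm and 5 at Tl, whereas Lck (-0.78 and -0.69) and Zap70 (-1.09 and -1.25) were lower. Melanocyte markers summed to 1.74, 5.64, and 5.59. All 5 were higher at Tm, but at Tl 3 were higher and 2 lower, among them Mlana (-1.51). Mast cell markers summed to 3.47, 1.63, and 1.11, a sum dominated by Tpsb2 (log2 levels of 1.67, 0.50, and -0.39). Of 4 with a value, 1 had a change above 0 at Tm and 2 at Tl, among them Cma1 (0.69 and 0.89). Neutrophil markers summed to between 5.47 (Te) and 15.4 (Tm), a sum dominated by Retnlg (log2 levels of 2.19, 3.90, and 3.35), whereas the median changes of the list were -0.026 and -0.66 and Ltf had changes of -2.52 and -2.34. The mast cell marker Ms4a2 was dim on all 3 arrays. The part of these cell types in the values of the Bcl2 family was not tested.

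**Figure D5:**
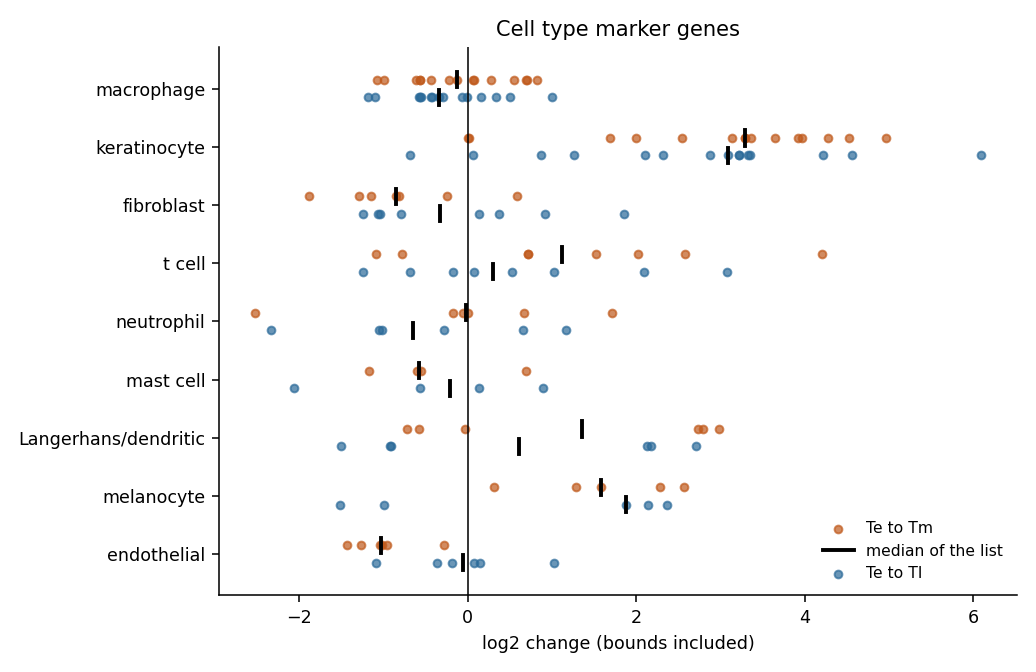
Log2 change of marker genes of 9 cell types from Te to Tm (orange) and from Te to Tl (blue), 1 point per gene, with lower bounds where a probe was dim on 1 array. Black ticks are the median of each list; the keratinocyte list has medians of 3.29 and 3.09, whereas the macrophage list has -0.13 and -0.35.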

How the data were processed

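RNA of sorted macrophages from 3 pooled mice per stage was amplified, labelled with Cy3, and hybridized to 1 Agilent array per stage, all on 1 slide. Per the file headers, the authors quantified the scans with Feature Extraction 10.7, and they deposited each spot's intensity on a linear scale, corrected for background and not normalized between arrays. A deposited table holds log2 values of 36409 probes, each row centred on its median and each varying by at least 1.00, whose normalization is not given in the sources used here. Its columns had medians of 0.36 (Te), 0, and 0.

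From the intensities, control and outlier spots (162, 274, and 281) were left out, spots of a probe were averaged, and log2 values were set against the array's own 75th percentile (signals of 414, 497, and 927). A probe was well above background when at least 0.5 of its spots were so called (71.4%, 59.6%, and 68.7% of probes). With 1 side dim, the change is a lower bound. Of 55681 probes, 26056 were named through RefSeq transcripts. Named in the text are all member probes, all further family genes, and pathway genes at least 2-fold away from Te in 1 direction on both later arrays; Foxo1, Foxo3, Trp53, Csf1r, Mdm2, Trp73, Endog, Rps6ka1, Fbxw7, Mapk8, Birc2, Il3ra, and single markers were added after their values were seen. The members, lists, and alternatives were chosen with earlier results of these data known. Some list genes are not reported here by their own values. The steps were tested on simulated data. The number of arrays limits the precision. Python 3 with numpy and pandas and, for normexp, limma in R were used.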

Additional observations from a re-analysis of the deposited data

How the results depend on the processing

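The direction of Bcl2, Bcl2l11, and Pmaip1 (below Te) and of Bax and the first Bad probe (above Te) held with every setting run on the scanner files as assigned. The filters on dim probes could not alter it, because no member probe was dim. By contrast, the counts and medians of the family followed the scaling. The scalings themselves moved the median change of the 30806 probes well above background on all 3 arrays by -0.37 (75th percentile of those probes), 0.083 (quantile), 0.56 (array median), and 0.26 (none) from Te to Tm, and from Te to Tl by -0.21, 0.12, 0.52, and 1.16. From Tm to Tl, leaving out the scaling moved it by 0.90. The value for quantile normalization does not describe probes as bright as the members, whose own median is given next.

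The median member change from Te to Tm was 0.41 with the first of these, 0.20 with quantile normalization, 1.34 with the array median, 1.04 without scaling, 0.52 with 1 probe per gene, and 0.11 relative to probes of like brightness. At least 2-fold higher were 2, 2, 8, 7, 3, and 2 probes, and 3, 3, 1, 2, 2, and 3 were at least 2-fold lower in the same order. For the other scalings, shares over all probes were not counted. From Te to Tl the median was -0.23 (75th percentile of those probes), 0.50 (array median), 1.14 (no scaling), 0.20 (normexp), and -0.22 (like brightness); 3, 7, and 1 probes were 2-fold higher with the array median, no scaling, and normexp, and 1 and 0 were lower with the first 2. From Tm to Tl the median was -0.33 (quantile), -0.31 (like brightness), and 0.20 without scaling, where 2 probes were higher and 0 lower, and 1 was lower with 1 probe per gene.

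With the later arrays exchanged, the medians were -0.025, 0.78, and 0.71, and 0, 4, and 2 probes were 2-fold higher from Te to Tm, Te to Tl, and Tm to Tl, with 0 lower in the last. The value table as labelled, which holds 8 member probes, gave -0.30, 0.91, and 0.82, with 0, 4, and 2 higher and 0 lower in the last. Bbc3 then had -0.17 from Te to Tm, and from Tm to Tl Bbc3 had 1.20 and the second Bad probe 1.21, with both sources. The other alternatives (3 filters on dim probes, outlier spots kept, and the median over a gene's probes) left each count within 1.5 times and each median within the spot error. Of the pathway genes, 7 that act on the Bad or Mcl1 proteins were 2-fold higher from Te to Tm, 1 with quantile normalization, and 0 relative to probes of like brightness. No paired analysis was possible because each stage has 1 array.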
